A study of Arabidopsis thaliana with 12 samples.

Results

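The genotype by temperature interaction compares, gene by gene, the response to warmth of Arabidopsis thaliana seedlings of the line labelled rve5-2 with that of wild type (WT). It is the log2 difference between 29 °C and 22 °C in the rve5-2 libraries minus the same difference in WT, so a positive value means that the ratio of 29 °C to 22 °C was higher in the rve5-2 libraries. All 12 RNA-seq libraries of the series enter it, as 4 groups of 3. They are rve5-2 and WT seedlings aged 5 days that had spent 12 h at 29 °C or had stayed at 22 °C, collected 12 h after dawn (zeitgeber time 12), after growth in long days at 22 °C. The temperature of each library is taken from its title and its own treatment value, because the general treatment text of the labels names 29 °C for every sample. Libraries of the 29 °C treatment are called warm and those of 22 °C cool. The title of the series names growth of the hypocotyl in warmth and the clock protein CCA1 as its subject, and the interaction addresses the part of that question that concerns a genotype-dependent answer to warmth. Whole seedlings were used, so a lower level can come from fewer cells of a type or from less RNA per cell, and these cannot be told apart. The labels do not say whether replicates came from separate cultures, so the tests speak only for the spread among the libraries at hand, nor do they name the parent strain. They call rve5-2 a T-DNA mutant, a line with a piece of foreign DNA inserted in its genome.

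The circadian clock of plants is a loop of repressors and activators that peak one after another through the day. CCA1 and LHY, MYB-like proteins of dawn, repress evening genes such as TOC1 by binding a short promoter sequence called the evening element. RVE8, RVE6, RVE4 and RVE5 belong to the same protein family and bind the same element, and RVE8 and its close relatives are known as activators of evening genes. The evening complex, made of ELF3, ELF4 and LUX, in turn represses PIF4, a transcription factor that drives elongation of the hypocotyl in warm seedlings. Warmth is also known to induce heat shock genes and to lower cold-responsive genes.

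RVE5 itself was far above its WT level in the rve5-2 libraries. RVE5 (AT4G01280, chromosome 4, 535211 to 537322 on the plus strand, in TAIR10 coordinates as used throughout) had 1417, 1325 and 1246 CPM in the warm rve5-2 libraries and 1075, 939 and 1018 CPM in the cool rve5-2 libraries, against 16.7, 13.4 and 15.1 CPM in warm WT and 14.6, 15.8 and 14.4 CPM in cool WT. The libraries labelled rve5-2 were thus above all WT libraries at both temperatures, and the labels do not say what the allele does to the transcript. Levels are CPM, counts scaled to library size by edgeR, and changes are log2 differences from its quasi-likelihood fit. Within the rve5-2 libraries RVE5 rose at 29 °C by 0.40 log2 (adjusted p = 0.00787), and in WT the difference was 0.02 (adjusted p = 0.924). The interaction of RVE5 was 0.38 ± 0.13 (SE; 95% interval 0.10 to 0.66) with edgeR adjusted p = 0.981, unadjusted p = 0.0123 and DESeq2 adjusted p = 0.376.

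Library totals ran between 65893498 and 89079245 deposited counts. Low counts pile up at whole multiples of 3.73, and in such units the totals were 17665817 to 23881835. One library stood somewhat apart: replicate 1 of warm WT had a median distance of 0.157 log2 from the other warm WT libraries, against 0.0900 to 0.120 for the other 11 libraries from their own partners. The root markers were lowest in it. Their mean log2 CPM was 0.24 ± 0.55 in warm rve5-2, 2.88 ± 0.12 in cool rve5-2, 0.28 ± 1.13 in warm WT and 2.76 ± 0.50 in cool WT (SD, n = 3 each), with -1.01 in replicate 1 of warm WT, where 24 of the 27 root markers tested had their lowest level of the group. Seed storage markers were not detected above the filter (0 of 5 tested).

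No gene passed the test of the interaction. Of 21870 genes tested, edgeR called 0 higher and 0 lower at an adjusted p under 0.05 (0% in each direction), and the smallest adjusted p was 0.228. At an unadjusted p under 0.05 there were 1070 genes (4.89%), 505 higher and 565 lower. At a mean of at least 10 CPM, where genes are called well expressed here, there were 706 of 12365 (5.71%). DESeq2 on the same counts called 43 of 21853 genes (0.197%), 15 higher (0.0686%) and 28 lower (0.128%), with 1129 genes at an unadjusted p under 0.05. limma on the deposited FPKM values called 0, with 1175 genes at an unadjusted p under 0.05. Of the 43 genes of DESeq2, 28 were well expressed and had no library at 0, with 9 higher and 19 lower and log2 interactions of 0.33 to 1.59 in size, and 6 had between 3 and 8 libraries at 0. The evening clock list below holds 6 of the 43. JMJD5, a histone demethylase tied to the clock, was another, with -0.63 log2 and DESeq2 adjusted p = 0.037, and was named after its value was seen. For the genes described at length, the adjusted p of edgeR and of DESeq2 are set side by side.

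The precision of these estimates bounds what could have been missed. Among the 12365 well-expressed genes the median standard error of the interaction was 0.143 log2, and the 95% interval lay wholly within 1 log2 unit of 0 for 11782 (95.3%) and within 0.5 log2 units for 8121 (65.7%). Among the 9505 genes of lower level the median standard error was 0.503 log2. An absent call among those is therefore no statement that the responses were alike.

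The warm responses were called for many genes in both genotypes. In the rve5-2 libraries 2848 genes rose at 29 °C and 2848 fell (13% of the genes tested in each direction), and in WT 1767 rose and 1620 fell (8.08% and 7.41%). Both lists held 2678 genes with the same direction, 2 genes had opposite directions, 3016 were called in rve5-2 only and 707 in WT only. The mean level of the root markers was lower in all warm libraries than in the cool ones. As each library was left out, 3590 to 6958 genes were called in rve5-2 and 1747 to 3621 in WT. With a root score, the mean of the root markers, added as a covariate, 84 and 36 were called. That score divided the warm from the cool libraries without overlap, so this fit cannot tell it apart from temperature. These numbers of called genes do not by themselves show different responses, and edgeR called the interaction for no gene. DESeq2 called it for 43 genes, some of which passed edgeR's test of warmth in a single genotype. Examples are TOC1, COR27 and GRIK1, which passed in WT only (DESeq2 adjusted p = 0.00271, 0.00442 and 0.00713). POP2 passed in rve5-2 only (DESeq2 adjusted p = 0.00192). The warm comparisons of both genotypes use the shared spread of all 12 libraries.

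**Figure D1:**
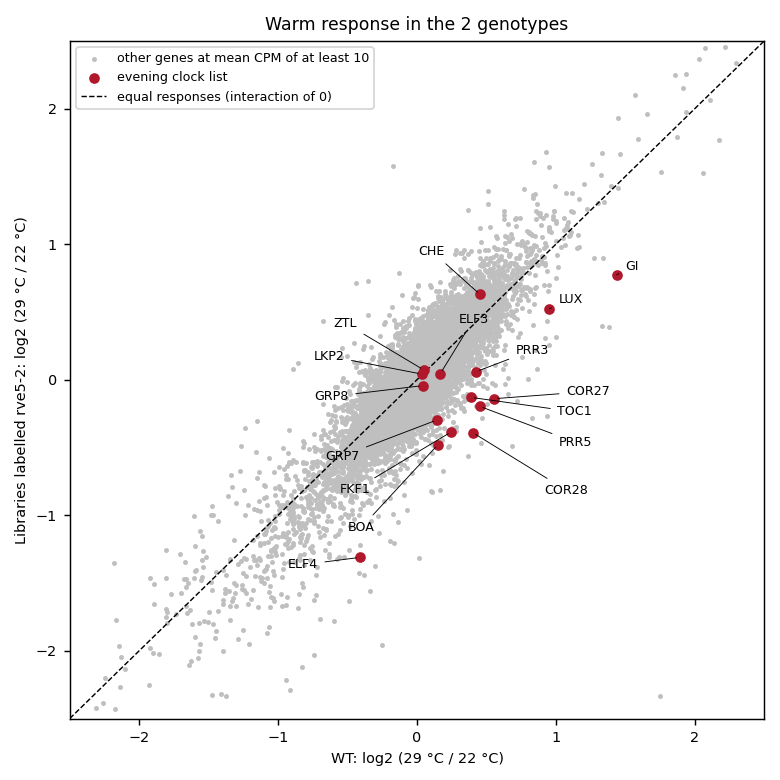
Each point is a gene with a mean of at least 10 CPM, by its log2 difference between 29 °C and 22 °C in the libraries labelled rve5-2 (vertical axis) and in WT (horizontal axis), both from edgeR; 33 genes lie outside the axes. Genes on the dashed line have an interaction of 0, and 13 of the 16 evening clock genes, in red, lie below it, with ELF4 at -1.31 in rve5-2 and -0.41 in WT.

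With all libraries the evening clock genes had the lowest median interaction of the gene lists examined, at -0.48 log2, next to -0.45 for cold response and -0.39 for phosphate starvation. That rank depends on the libraries, since with single libraries left out the cold median reached -0.62 and the phosphate median -0.68. Their list holds 16 genes, all with a mean of at least 10 CPM, and was chosen with earlier results of these data known. The interaction was below 0 for 13 of the 16, against 50.7% of all genes tested, and 11 of the 16 were lower at an unadjusted p under 0.05, against 2.58% of all genes. The median over all genes was -0.004. None of the 16 passed edgeR's adjusted threshold, and 6 were called by DESeq2 (ELF4, TOC1, COR27, GI, FKF1 and GRP7). The median response to warmth was -0.09 log2 in the rve5-2 libraries, with 3 members risen and 3 fallen, and 0.32 log2 in WT, with 7 risen and 1 fallen. In each alternative fit, including leaving out each library in turn, 10 or 11 members were lower at an unadjusted p under 0.05, and the median stayed between -0.53 and -0.43.

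Many evening genes are known to carry the evening element AAAATATCT close to their start, so the upstream windows are shown of 4 members that carry it and were lower at an unadjusted p under 0.05. The element, on either strand, was found within 300 bases upstream of the annotated start in 8 of the 16 members, 7 of the 11 that were lower at an unadjusted p under 0.05 and 1 of the other 5. It was present in 628 of the 21869 windows of the genes tested that could be read whole (2.87%). The related letters AAAAATCT stood in 2 of the 16 members (7.79% of all windows), and the G-box CACGTG in 5 of 16 (9.46% of all windows). No exact match of any of these motifs was found in the windows of ELF4, GI, PRR5 or PRR3. Shorter or inexact forms were not searched. A match describes the sequence only. The windows below are from the RefSeq genome TAIR10.1, written 5′ to 3′ along the gene's strand, ending at the base before the annotated start, with evening elements of either strand in capitals. They are chr5:24674764-24675063 (plus strand) for TOC1, chr3:17182790-17183089 (plus strand) for LUX, chr1:25508376-25508675 (plus strand) for FKF1 and chr2:9266394-9266693 (minus strand) for GRP7. AGATATTTT is the evening element read from the opposite strand.
TOC1: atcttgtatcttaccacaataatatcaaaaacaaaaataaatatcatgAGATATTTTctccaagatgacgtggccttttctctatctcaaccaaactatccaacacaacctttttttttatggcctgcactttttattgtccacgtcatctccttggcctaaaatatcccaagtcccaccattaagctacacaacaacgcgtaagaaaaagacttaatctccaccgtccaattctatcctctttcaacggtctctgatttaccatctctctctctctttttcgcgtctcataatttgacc
LUX: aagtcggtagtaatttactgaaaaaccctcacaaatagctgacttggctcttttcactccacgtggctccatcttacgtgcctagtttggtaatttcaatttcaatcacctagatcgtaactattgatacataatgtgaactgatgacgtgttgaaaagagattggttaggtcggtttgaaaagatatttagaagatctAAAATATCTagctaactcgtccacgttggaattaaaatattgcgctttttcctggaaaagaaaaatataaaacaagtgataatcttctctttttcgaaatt
FKF1: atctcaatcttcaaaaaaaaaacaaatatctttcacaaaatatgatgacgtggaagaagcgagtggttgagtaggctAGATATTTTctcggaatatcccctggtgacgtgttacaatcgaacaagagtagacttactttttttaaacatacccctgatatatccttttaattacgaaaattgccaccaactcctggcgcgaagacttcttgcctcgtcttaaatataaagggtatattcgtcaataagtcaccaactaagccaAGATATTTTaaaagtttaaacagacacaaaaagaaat
GRP7: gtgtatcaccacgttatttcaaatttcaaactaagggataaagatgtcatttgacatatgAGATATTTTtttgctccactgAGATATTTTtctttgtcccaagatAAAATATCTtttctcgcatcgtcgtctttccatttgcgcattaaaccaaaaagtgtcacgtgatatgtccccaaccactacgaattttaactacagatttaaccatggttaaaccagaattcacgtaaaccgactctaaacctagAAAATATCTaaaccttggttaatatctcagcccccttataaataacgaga

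GRP7 held 4 evening elements, the highest number among the members. TOC1 held 1 element, in the distal part of its window, and FKF1 held 2, both on the opposite strand.

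Within the evening complex, ELF4 had the smallest p of the list. ELF4 (AT2G40080, chromosome 2, 16734294 to 16734912, minus strand) had 21.9, 19.2 and 25.3 CPM in the warm rve5-2 libraries and 57.1, 51.1 and 56.8 CPM in the cool rve5-2 libraries, against 39.2, 37.5 and 47.7 CPM in warm WT and 56.6, 51.7 and 57.4 CPM in cool WT. The warm rve5-2 libraries were below all 9 others, while the 2 groups at 22 °C overlapped. ELF4 fell at 29 °C in both genotypes, by 1.31 log2 in rve5-2 (adjusted p = 2.36e-05) and by 0.41 log2 in WT (adjusted p = 0.0255), and its interaction was -0.90 ± 0.16 (SE; 95% interval -1.24 to -0.56), with edgeR adjusted p = 0.398, unadjusted p = 8.26e-05 and DESeq2 adjusted p = 0.000599.

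LUX, the DNA-binding member of the complex, rose in both. LUX (AT3G46640, chromosome 3, 17183090 to 17185218, plus strand) had 83.8, 74.4 and 88.2 CPM in the warm rve5-2 libraries and 59.1, 58.8 and 53.7 CPM in the cool rve5-2 libraries, against 79.0, 79.99 and 84.6 CPM in warm WT and 43.3, 40.3 and 42.3 CPM in cool WT. The warm groups of both genotypes overlapped, and the cool groups did not. LUX rose by 0.52 log2 in rve5-2 and by 0.95 log2 in WT (adjusted p = 0.000569 and 2.06e-05), with an interaction of -0.43 ± 0.10 (SE; 95% interval -0.66 to -0.20), with edgeR adjusted p = 0.654, unadjusted p = 0.0014 and DESeq2 adjusted p = 0.0738. BOA, the close relative of LUX, had an interaction of -0.63 ± 0.28 (SE; 95% interval -1.23 to -0.03) that shrank to -0.41 without replicate 1 of warm WT. ELF3, the scaffold of the complex, stood at 81.6 to 94.1 CPM in warm rve5-2, 83.8 to 89.1 CPM in cool rve5-2, 97.2 to 101 CPM in warm WT and 79.0 to 98.1 CPM in cool WT, and its interaction was -0.12 ± 0.12 (SE; 95% interval -0.38 to 0.13), with -0.05 without replicate 3 of cool WT.

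Among the pseudo-response regulators, repressors of CCA1 and LHY, the members of afternoon and evening had interactions below 0. TOC1 (AT5G61380, chromosome 5, 24675064 to 24678550, plus strand) had 160.0, 155 and 151 CPM in the warm rve5-2 libraries and 179, 172 and 160.1 CPM in the cool rve5-2 libraries, against 189, 161 and 173 CPM in warm WT and 140.0, 132 and 128 CPM in cool WT. TOC1 in the warm WT libraries lay above cool WT in each replicate, while in rve5-2 the warm libraries lay just below the cool ones. The difference of TOC1 between temperatures was -0.13 log2 in rve5-2 (adjusted p = 0.211), it rose in WT by 0.39 log2 (adjusted p = 0.00546), and the interaction was -0.52 ± 0.10 (SE; 95% interval -0.74 to -0.29), with edgeR adjusted p = 0.398, unadjusted p = 0.000294 and DESeq2 adjusted p = 0.00271. PRR5 gave -0.65 ± 0.16 (SE; 95% interval -0.99 to -0.30), with edgeR adjusted p = 0.654 and DESeq2 adjusted p = 0.101, and PRR3 gave -0.37 ± 0.13 (SE; 95% interval -0.64 to -0.09). In rve5-2 the differences of PRR5 and PRR3 between temperatures were -0.20 and 0.06 log2 and did not pass the test, and in WT both rose, by 0.45 and 0.42 log2. PRR7, which peaks earlier in the day and belongs to the morning list, rose strongly in both genotypes, by 1.52 log2 in rve5-2 and 2.06 log2 in WT, with an interaction of -0.54 ± 0.16 (SE; 95% interval -0.89 to -0.18) and edgeR adjusted p = 0.847.

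COR27 and its partner COR28 are small proteins of the evening that act in cold and light signalling as well as in the clock. COR27 (AT5G42900, chromosome 5, 17197641 to 17199793, minus strand) had 25.7, 23.1 and 25.6 CPM in the warm rve5-2 libraries and 28.5, 28.5 and 25.1 CPM in the cool rve5-2 libraries, against 44.3, 37.0 and 36.5 CPM in warm WT and 26.4, 28.1 and 25.8 CPM in cool WT. The warm WT libraries lay above all the others, and those of the other 3 groups lay between 23.1 and 28.5 CPM. The difference between temperatures was -0.14 log2 in rve5-2 (adjusted p = 0.281), and in WT COR27 rose by 0.55 log2 (adjusted p = 0.00255). The interaction was -0.69 ± 0.13 (SE; 95% interval -0.97 to -0.41), with edgeR adjusted p = 0.398, unadjusted p = 0.000146 and DESeq2 adjusted p = 0.00442. COR28 had the estimate -0.79 ± 0.22 (SE; 95% interval -1.27 to -0.31), edgeR adjusted p = 0.747, and neither genotype's warm response of COR28 passed the test.

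GI, which stabilises the photoreceptor ZTL and promotes flowering, gave the largest warm rise of the list. GI (AT1G22770, chromosome 1, 8061844 to 8067716, plus strand) had 113, 129 and 111 CPM in the warm rve5-2 libraries and 73.7, 71.3 and 62.0 CPM in the cool rve5-2 libraries, against 83.0, 81.7 and 85.5 CPM in warm WT and 36.3, 27.3 and 28.9 CPM in cool WT. No pair of groups overlapped, and warm rve5-2 was highest. GI rose by 0.77 log2 in rve5-2 and by 1.44 log2 in WT. At 22 °C it was 1.16 log2 higher in rve5-2 than in WT (adjusted p = 0.000236). Its interaction was -0.66 ± 0.15 (SE; 95% interval -0.99 to -0.34), with edgeR adjusted p = 0.586, unadjusted p = 0.000777 and DESeq2 adjusted p = 0.023.

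FKF1, a blue-light receptor that targets repressors of flowering, fell at 29 °C in rve5-2 by 0.39 log2 (adjusted p = 0.0152), and its difference in WT was 0.25 log2 (adjusted p = 0.116). FKF1 (AT1G68050, chromosome 1, 25508676 to 25510889, plus strand) had 32.0, 31.1 and 34.5 CPM in the warm rve5-2 libraries and 41.8, 43.6 and 42.2 CPM in the cool rve5-2 libraries, against 43.2, 31.6 and 34.2 CPM in warm WT and 32.0, 30.9 and 29.1 CPM in cool WT. All cool rve5-2 libraries were above the rest except replicate 1 of warm WT, which lay among them. The interaction was -0.63 ± 0.14 (SE; 95% interval -0.94 to -0.32), with edgeR adjusted p = 0.586 and DESeq2 adjusted p = 0.0484, and -0.49 without replicate 1 of warm WT. ZTL and LKP2, the relatives of FKF1, had estimates of 0.02 ± 0.10 and 0.01 ± 0.14 log2 (SE), whose signs turned under several alternatives.

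Among the outputs of the clock, GRP7, an abundant RNA-binding protein, had the interaction -0.44 ± 0.12 (SE; 95% interval -0.69 to -0.19), with edgeR adjusted p = 0.716 and DESeq2 adjusted p = 0.0167. It averaged 2189 ± 174 CPM in warm rve5-2 and 2690.1 ± 166 CPM in cool rve5-2, against 2345 ± 111 CPM in warm WT and 2122 ± 54.1 CPM in cool WT (SD, n = 3 each). Its relative GRP8 had -0.08 ± 0.13 (SE; 95% interval -0.37 to 0.20), which was -0.19 without replicate 1 and -0.02 without replicate 2 of warm WT. CHE, a factor that represses CCA1, was the member furthest above 0, with 0.17 ± 0.13 (SE; 95% interval -0.11 to 0.46), and 0.09 without replicate 3 of cool rve5-2. Of the 16 members, 3 differed between the genotypes at 22 °C (GI, PRR5 and LUX, all higher in rve5-2, against 0.137% of all genes higher and 0.0549% lower) and 2 at 29 °C (ELF4 and COR27, both lower in rve5-2, against 0.146% lower).

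**Figure D2:**
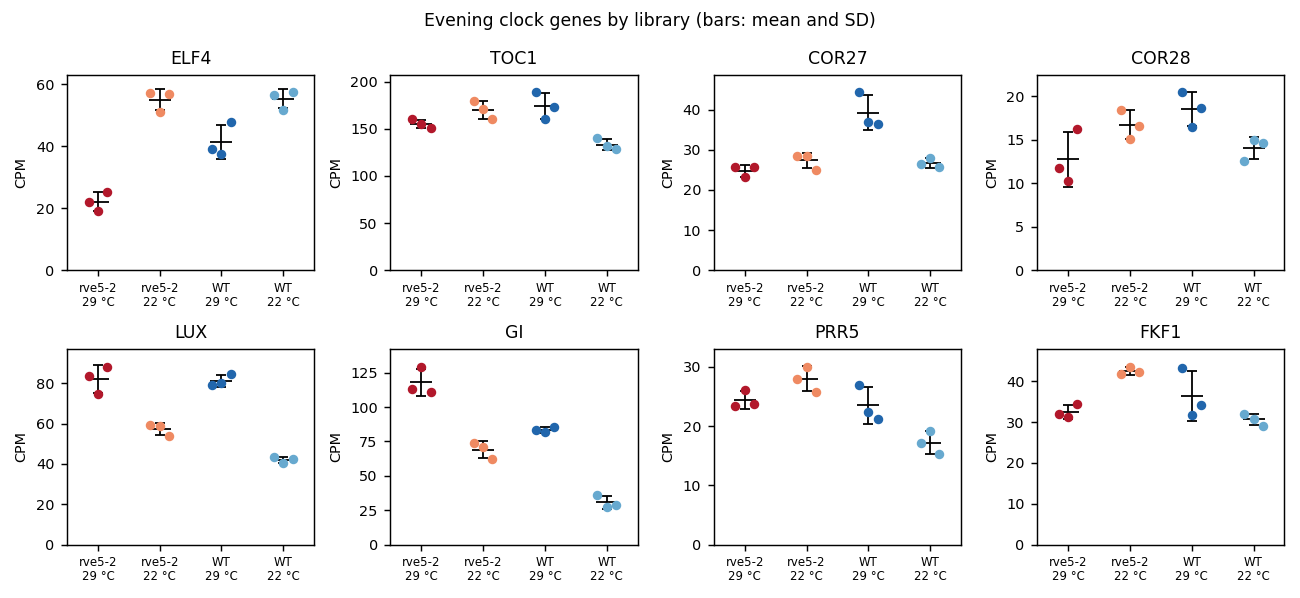
CPM of 8 evening clock genes in each library, as points, in the order warm rve5-2, cool rve5-2, warm WT and cool WT, with the mean and SD of the 3 libraries of each group as bars. ELF4 is lowest in warm rve5-2 (19.2 to 25.3 CPM), and COR27 is highest in warm WT (36.5 to 44.3 CPM).

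CCA1, LHY, PRR9 and RVE8 were too low at this hour to be compared with precision. CCA1 had 2.77, 3.01 and 1.68 CPM in warm rve5-2 and 0.73, 0.75 and 1.13 CPM in cool rve5-2, against 1.01, 0.42 and 0.77 CPM in warm WT and 0.20, 0.78 and 0.27 CPM in cool WT. Warm rve5-2 lay above all other libraries, yet the interaction of CCA1 was 0.69 ± 0.74 (SE; 95% interval -0.92 to 2.298), with edgeR adjusted p = 0.994, and turned to -0.13 without replicate 2 of cool WT. LHY, its partner, gave 0.16 ± 0.76 (SE; 95% interval -1.48 to 1.80). PRR9 had 1.95 to 3.11 CPM in warm rve5-2 and 0.24 to 0.75 CPM in cool rve5-2, against 0.38 to 1.02 CPM in warm WT and 0.23 to 0.57 CPM in cool WT, with an interaction of 1.91 ± 0.78 (SE; 95% interval 0.22 to 3.598) and edgeR adjusted p = 0.981, and 29.2% of its 50-base stretches occur elsewhere in the genome. RVE8 gave 1.119 ± 0.46 (SE; 95% interval 0.11 to 2.13), edgeR adjusted p = 0.981. LNK1, a coactivator that binds RVE8, rose by 1.77 log2 in rve5-2 and by 2.17 log2 in WT, with -0.40 ± 0.16 (SE; 95% interval -0.75 to -0.05), and -0.25 without replicate 2 of cool WT. In the morning list 3 of 15 members were higher and 2 lower at an unadjusted p under 0.05, against 2.31% and 2.58% of all genes. Its 6 members with a mean of at least 10 CPM, PRR7 and LNK1 among them, had a median interaction of -0.23. For all 15 the median was 0.17.

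PIF4 rose at 29 °C in both genotypes, and its interaction did not pass the test. PIF4 (AT2G43010, chromosome 2, 17886427 to 17889050, plus strand) had 86.1, 75.0 and 83.6 CPM in the warm rve5-2 libraries and 47.8, 40.4 and 36.6 CPM in the cool rve5-2 libraries, against 56.4, 43.3 and 41.5 CPM in warm WT and 23.65, 17.9 and 21.9 CPM in cool WT. Warm rve5-2 was highest, and cool rve5-2 overlapped warm WT. The rise was 0.97 log2 in rve5-2 and 1.15 log2 in WT, and the interaction was -0.18 ± 0.19 (SE; 95% interval -0.60 to 0.24), with edgeR adjusted p = 0.994. Without replicate 1 of warm WT it was -0.03. Of 19 PIF and shade-type regulators 1 was lower at an unadjusted p under 0.05, against 2.58% of all genes, and the list median was -0.04. That member, PIF1, had an interaction of -0.56 ± 0.19 (SE; 95% interval -0.97 to -0.15). YUC8, which makes auxin in warm seedlings, stood at 3.37 to 5.48 CPM in warm rve5-2 and 1.51 to 3.29 CPM in cool rve5-2, against 1.91 to 2.49 CPM in warm WT and 1.64 to 3.65 CPM in cool WT, with 1.14 ± 0.50 (SE; 95% interval 0.06 to 2.22) and edgeR adjusted p = 0.981, and 0.74 without replicate 3 of cool WT. This gene was picked by hand. Of the 24 tested genes of auxin synthesis and response, 10 were above 0 and 14 below, with a median of -0.08. At an unadjusted p under 0.05 3 of the 24 were higher and 0 lower, against 2.31% and 2.58% of all genes.

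The SAUR genes, small auxin-induced proteins that promote cell expansion, leaned the other way from the evening genes. Their interaction was above 0 for 17 of 20, with a median of 0.39, and 2 were higher at an unadjusted p under 0.05, against 2.31% of all genes. In rve5-2 12 of the 20 rose and 0 fell, and in WT 7 rose and 0 fell, where 13% and 8.08% of all genes rose. SAUR14 had 29.9 to 39.7 CPM in warm rve5-2 and 15.6 to 18.4 CPM in cool rve5-2, against 24.5 to 33.8 CPM in warm WT and 19.2 to 21.3 CPM in cool WT, with an interaction of 0.55 ± 0.18 (SE; 95% interval 0.15 to 0.95) and edgeR adjusted p = 0.981. Only 3 of the 20 reached a mean of 10 CPM, several are tandem copies, and the median moved between 0.23 and 0.54 as each library was left out. Without replicate 1 of warm WT 5 members were higher at an unadjusted p under 0.05. In that fit 9.68% of all genes, both directions together, were at that p. Of 20 genes of cell wall loosening 1 was higher and 2 lower at an unadjusted p under 0.05, against 2.31% and 2.58% of all genes. The list median was -0.01. The higher was the xyloglucan enzyme XTH8, with 0.35 ± 0.16 (SE). The lower were the expansin EXPA10, with -0.45 ± 0.12 (SE; 95% interval -0.71 to -0.20), and XTH18, with -1.23 ± 0.34 (SE). The edgeR adjusted p was 0.981 for XTH8 and 0.716 for EXPA10 and XTH18.

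**Figure D3:**
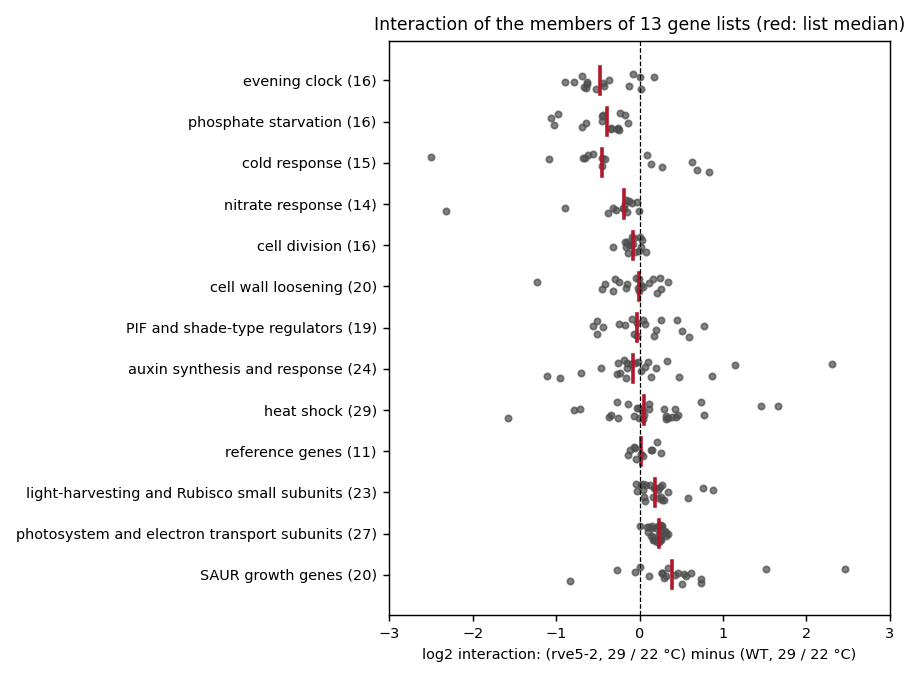
Log2 interaction of each tested member of 13 gene lists (points, spread vertically only for legibility), with the number of members tested in brackets and the list median as a red bar. The medians run from -0.48 for the evening clock to 0.39 for SAUR genes, and the reference genes have a median of 0.01.

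Photosynthesis genes were nearly all above 0 by a small amount. Of 27 nuclear genes for photosystem and electron transport subunits all 27 had an interaction above 0 (PSAD1 at 0.00), with a median of 0.23 and 2 higher at an unadjusted p under 0.05, against 2.31% of all genes. In rve5-2 21 of them rose at 29 °C, against 13% of all genes, and in WT 7 rose, against 8.08%. Of the 113 genes that the deposited table annotates to photosynthesis, 4 were higher and 0 lower (3.54%, against 4.89% of all genes). Of the 23 antenna genes and genes of the Rubisco small subunit, 21 were above 0, with a median of 0.19. LHCA1, an antenna protein of photosystem I, had 3346, 3293 and 2869 CPM in warm rve5-2 and 1163, 1269.7 and 1183 CPM in cool rve5-2, against 1699, 1539 and 1296 CPM in warm WT and 751, 1181 and 1252 CPM in cool WT. Warm rve5-2 was above every other library, while warm and cool WT were apart only narrowly. Its interaction was 0.88 ± 0.23 (SE; 95% interval 0.38 to 1.38), with edgeR adjusted p = 0.716, unadjusted p = 0.00222 and DESeq2 adjusted p = 0.0292. LHCB1.2 and LHCB1.1 had interactions of 0.58 ± 0.19 and 0.76 ± 0.29 (SE), and they share 12.9% and 23.0% of their 50-base stretches with other places in the genome, so reads of these copies are not fully separable.

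The photosystem values moved with the library that stood apart. Relative to cool WT, the mean log2 level of the 27 genes was 0.76, 0.70 and 0.60 in warm rve5-2 and 0.28, 0.16 and 0.12 in cool rve5-2, against 0.56, 0.12 and 0.16 in warm WT. The highest of the warm WT values belongs to replicate 1, the library with the lowest root markers, and the part of root content in the result was not tested. Without that library the median interaction of the list was 0.39, with 25 of 27 higher at an unadjusted p under 0.05, and that of the light-harvesting list was 0.33, with 13 of 23 higher instead of 3. The share of all genes at that p, both directions together, was 9.68% in this fit, against 4.89% with all libraries. Without replicate 2 of warm WT the photosystem median was 0.14, with 0 of 27 higher at an unadjusted p under 0.05. That number was also 0 without replicate 3 of warm WT or replicate 1 or 3 of cool WT. The same held without replicate 2 or 3 of cool rve5-2 and without replicate 1 or 2 of warm rve5-2. It was 3 without replicate 2 of cool WT, 1 without replicate 1 of cool rve5-2 and 2 without replicate 3 of warm rve5-2. Without replicate 3 of warm WT the light-harvesting median was 0.10.

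All 14 nitrate response genes tested had a negative interaction, with a median of -0.18, and 3 of them were lower at an unadjusted p under 0.05, against 2.58% of all genes. In rve5-2 11 fell at 29 °C, against 13% of all genes, and in WT 6 fell, against 7.41%. NIA1, a nitrate reductase, had 166, 105.0 and 120.5 CPM in warm rve5-2 and 238, 322 and 203 CPM in cool rve5-2, against 185, 209.7 and 178 CPM in warm WT and 216, 199.6 and 186 CPM in cool WT. The warm rve5-2 libraries were the lowest 3 of the 12. The interaction of NIA1 was -0.89 ± 0.25 (SE; 95% interval -1.43 to -0.35), with edgeR adjusted p = 0.725 and DESeq2 adjusted p = 0.0756. HHO3, a GARP-type factor, fell in both genotypes and had -0.32 ± 0.12 (SE; 95% interval -0.58 to -0.06). NRT2.1, a transporter of nitrate, had -2.32 log2 at a low level (edgeR adjusted p = 0.981). Without replicate 3 of warm WT 9 of the 14 were below 0, and with each other library left out at least 12 were. Without replicate 1 of warm WT 5 were lower at an unadjusted p under 0.05. In that fit 9.68% of all genes, both directions together, were at that p. Iron uptake and storage genes had 5 of 16 members above 0 and 0 at an unadjusted p under 0.05.

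Phosphate starvation genes gave the same sign in all 16 members, with a median of -0.39, but 0 of them reached an unadjusted p under 0.05, and their levels differed widely between replicates. Their mean log2 level relative to cool WT was 0.17, -0.24 and -1.02 in warm rve5-2 and 0.21, 0.29 and -0.19 in cool rve5-2, against -0.57, 0.63 and -0.15 in warm WT. Replicates of each warm group overlapped the other groups. Without replicate 2 of warm WT the median was -0.02 with 8 members below 0, and without replicate 1 of warm rve5-2 it was -0.68. Without replicate 1 of warm WT it was -0.63, with 2 members lower at an unadjusted p under 0.05. In that fit 9.68% of all genes, both directions together, were at that p. The shared sign of this list was thus lost when 1 library was left out.

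**Figure D4:**
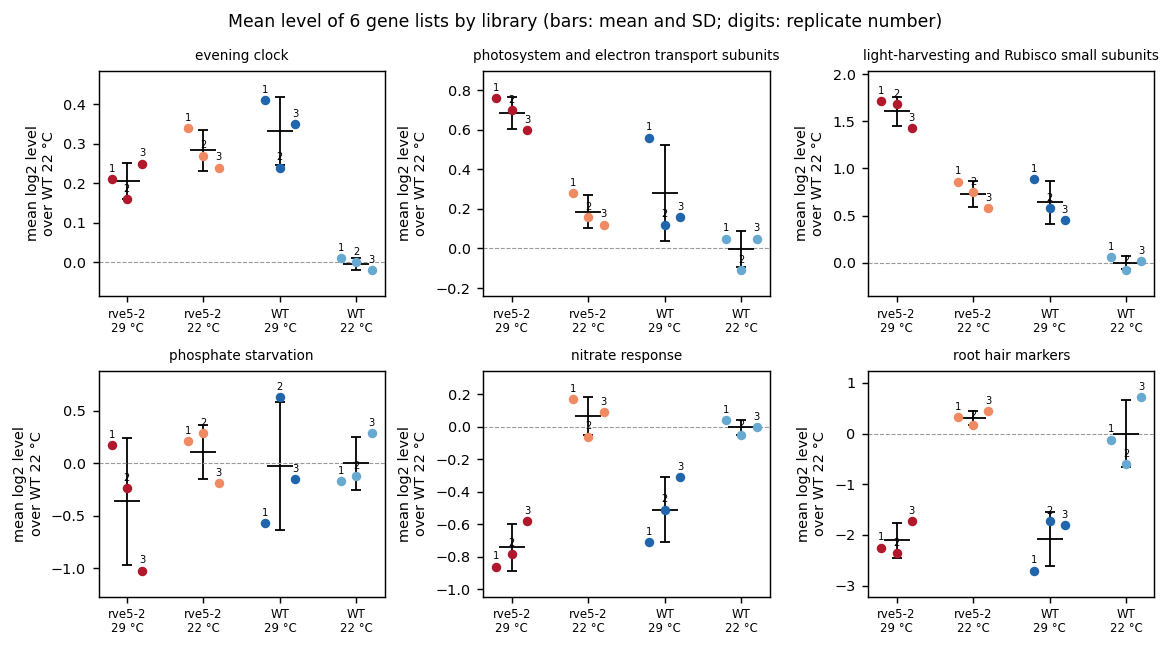
Mean log2 level of the members of 6 gene lists in each library relative to the mean of the cool WT libraries, computed on log2(CPM + 0.5), with digits for replicate numbers and bars for the mean and SD of each group. Phosphate starvation genes span -1.02 to 0.17 within warm rve5-2 and -0.57 to 0.63 within warm WT, and root hair markers lie between -2.70 and -1.72 in all 6 warm libraries.

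Heat shock genes rose in both genotypes. Of 29 tested, 20 rose in rve5-2 and 15 in WT, against 13% and 8.08% of all genes, with median responses of 1.48 and 1.36 log2 and a median interaction of 0.06. HSP90.1, a chaperone, had 95.7 to 118 CPM in warm rve5-2 and 18.3 to 26.4 CPM in cool rve5-2, against 103 to 122 CPM in warm WT and 15.8 to 19.1 CPM in cool WT, with an interaction of -0.37 ± 0.18 (SE; 95% interval -0.77 to 0.03), and -0.21 without replicate 3 of cool rve5-2. HSFA2, a heat shock factor, was the 1 member of 29 at an unadjusted p under 0.05, with -0.71 log2, against 4.89% of all genes. Without replicate 1 of warm WT there were 3, against 9.68% of all genes in that fit. Of the 15 cold response genes 8 fell in rve5-2 and 7 in WT, against 13% and 7.41% of all genes. The median interaction of the cold list was -0.45 with 1 of 15 members lower at an unadjusted p under 0.05, against 2.58% of all genes. Without replicate 1 of warm WT the cold median was -0.08 with 1 higher and 5 lower, against 9.68% of all genes in both directions together. RD29A, a cold and drought marker, fell to 6.55 to 8.93 CPM in warm rve5-2, against 42.5 to 54.5 CPM in cool rve5-2, and to 14.3 to 14.6 CPM in warm WT, against 45.9 to 77.1 CPM in cool WT. Its interaction was -0.62 ± 0.24 (SE; 95% interval -1.14 to -0.09), with edgeR adjusted p = 0.981. Root hair and endodermis markers fell in both genotypes (10 of 13 in rve5-2 and 10 of 13 in WT, and 8 of 14 and 10 of 14, against the same shares of all genes), with median interactions of -0.21 and -0.05.

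The 20 well-expressed genes with the smallest p were taken by a rule added after the values were seen. Of these 20, 3 are evening clock members (ELF4, COR27 and TOC1), 7 had a positive and 13 a negative interaction. These and the following counts include both AT14A copies, which share all their sequence stretches and are lower in both genotypes. By edgeR's test of each genotype, 5 rose in both and 5 fell in both. Another 7 passed the test in rve5-2 and not in WT, of which 1 rose and 6 fell. In WT and not in rve5-2 3 passed, of which 2 rose and 1 fell. Of all 21870 genes tested, 2678 passed in both with the same direction, 3016 in rve5-2 only and 707 in WT only. At 29 °C 14 of the 20 genes differed between the genotypes, against 0.32% of all genes higher and 0.146% lower. At 22 °C 1 of the 20 did, against 0.137% of all genes higher and 0.0549% lower. Since these genes were selected by the interaction, that pattern follows in part from the choice. The smallest edgeR adjusted p among them was 0.272.

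PKS2, a protein of phytochrome and phototropin signalling, gave the smallest p among well-expressed genes. PKS2 (AT1G14280, chromosome 1, 4877627 to 4879149, plus strand) had 29.9, 31.7 and 29.8 CPM in the warm rve5-2 libraries and 12.5, 12.7 and 12.0 CPM in the cool rve5-2 libraries, against 17.8, 14.6 and 16.8 CPM in warm WT and 10.9, 12.2 and 11.4 CPM in cool WT. Warm rve5-2 stood clear of all other libraries, and the cool groups of the 2 genotypes overlapped. PKS2 rose by 1.296 log2 in rve5-2 and by 0.51 log2 in WT, with an interaction of 0.79 ± 0.12 (SE; 95% interval 0.52 to 1.05), with edgeR adjusted p = 0.272, unadjusted p = 3.16e-05 and DESeq2 adjusted p = 0.000351. The estimate stayed between 0.71 and 0.85 as each library was left out.

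AT3G56290, a gene without a described function in the deposited table, behaved likewise. AT3G56290 (chromosome 3, 20878539 to 20879568, minus strand) had 47.7, 52.3 and 42.4 CPM in the warm rve5-2 libraries and 20.16, 21.1 and 18.6 CPM in the cool rve5-2 libraries, against 31.5, 28.7 and 32.9 CPM in warm WT and 23.9, 21.7 and 26.8 CPM in cool WT. It rose in both genotypes, and its interaction was 0.89 ± 0.14 (SE; 95% interval 0.58 to 1.196), with edgeR adjusted p = 0.272, unadjusted p = 3.73e-05 and DESeq2 adjusted p = 0.000351. AGP12 and AGP21, arabinogalactan proteins of the cell surface, also rose in both. AGP12 (AT3G13520, chromosome 3, 4408925 to 4409440, plus strand) had 149, 158 and 158 CPM in the warm rve5-2 libraries and 69.4, 66.3 and 60.8 CPM in the cool rve5-2 libraries, against 96.8, 90.4 and 106 CPM in warm WT and 59.8, 59.7 and 70.4 CPM in cool WT. All warm rve5-2 libraries were above all warm WT libraries, and the cool groups overlapped. The interactions were 0.61 ± 0.12 (SE; 95% interval 0.35 to 0.88) for AGP12 and 0.56 ± 0.11 (SE; 95% interval 0.32 to 0.80) for AGP21, with DESeq2 adjusted p = 0.00366 and 0.00589 and edgeR adjusted p = 0.398 for each.

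GRIK1, a kinase that activates SnRK1, the energy sensor of plant cells, did not pass the test of warmth in rve5-2, with a difference of 0.12 log2, and fell in WT by 0.86 log2 (adjusted p = 0.0025). GRIK1 (AT3G45240, chromosome 3, 16570478 to 16573762, minus strand) had 38.6, 29.7 and 27.2 CPM in the warm rve5-2 libraries and 30.0, 26.7 and 30.9 CPM in the cool rve5-2 libraries, against 14.6, 10.4 and 12.7 CPM in warm WT and 22.0, 22.7 and 23.9 CPM in cool WT. Warm WT was the lowest group, and warm rve5-2 overlapped cool rve5-2. The interaction was 0.98 ± 0.20 (SE; 95% interval 0.56 to 1.41), with edgeR adjusted p = 0.398, unadjusted p = 0.000279 and DESeq2 adjusted p = 0.00713. Another locus of the table, AT3G45242, covers the whole span of GRIK1 on the same strand, so their reads cannot be told apart.

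Several genes had a stronger fall in rve5-2 by their estimates. POP2, the transaminase that breaks down the amino acid GABA, is an example. POP2 (AT3G22200, chromosome 3, 7835144 to 7839061, plus strand) had 110.0, 104 and 110.2 CPM in the warm rve5-2 libraries and 187, 192 and 176 CPM in the cool rve5-2 libraries, against 147, 161 and 132 CPM in warm WT and 167, 149 and 172 CPM in cool WT. Warm rve5-2 was below every other library. POP2 fell in rve5-2 by 0.78 log2 (adjusted p = 0.000108), its difference in WT was -0.15 log2 (adjusted p = 0.237), and its interaction was -0.62 ± 0.12 (SE; 95% interval -0.88 to -0.37), with edgeR adjusted p = 0.398, unadjusted p = 0.000166 and DESeq2 adjusted p = 0.00192. CIPK21, a kinase that works with calcium sensors, fell in both, with -0.57 ± 0.11 (SE; 95% interval -0.82 to -0.33), with edgeR adjusted p = 0.398 and DESeq2 adjusted p = 0.00953, and 19.6% of its 50-base stretches occur elsewhere in the genome. POP2 overlaps AT3G22210 on the opposite strand by 278 bases, where reads without strand cannot be told apart.

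AT4G30650, annotated to a family of proteins that respond to low temperature and salt, fell by 2.83 log2 in rve5-2 and by 1.67 log2 in WT. AT4G30650 (chromosome 4, 14954320 to 14954968, plus strand) had 15.1, 12.1 and 19.0 CPM in the warm rve5-2 libraries and 112, 93.7 and 123 CPM in the cool rve5-2 libraries, against 60.1, 42.4 and 44.8 CPM in warm WT and 151, 148 and 170.1 CPM in cool WT. Both genotypes' warm libraries were far below their cool ones, and warm rve5-2 was lowest. The interaction was -1.16 ± 0.23 (SE; 95% interval -1.67 to -0.65), with edgeR adjusted p = 0.398, unadjusted p = 0.000295 and DESeq2 adjusted p = 0.00192. The 2 copies named AT14A, AT3G28290 and AT3G28300, gave -1.59 and -1.55 log2, but every 50-base stretch of each copy occurs elsewhere in the genome, so they count as 1 observation. AT3G28290 had 3.22, 3.64 and 5.48 CPM in warm rve5-2 and 29.6, 33.01 and 29.0 CPM in cool rve5-2, against 18.8, 9.57 and 11.9 CPM in warm WT and 31.2, 29.2 and 38.7 CPM in cool WT. Leaving out each library moved the copies between -1.86 and -1.23.

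EXT4, an extensin of the cell wall, had the estimate furthest below 0 among these 20 genes but a wide error. EXT4 (AT1G76930, chromosome 1, 28895301 to 28896883, minus strand) had 88.5, 119 and 116 CPM in the warm rve5-2 libraries and 302, 304 and 652 CPM in the cool rve5-2 libraries, against 177, 268 and 199 CPM in warm WT and 294, 245 and 227 CPM in cool WT. Replicate 3 of cool rve5-2 was above every other library, and without it the interaction was -1.24. With all libraries it was -1.71 ± 0.38 (SE; 95% interval -2.53 to -0.89), with edgeR adjusted p = 0.543 and DESeq2 adjusted p = 0.104, and some of its 50-base stretches occur elsewhere in the genome.

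**Figure D5:**
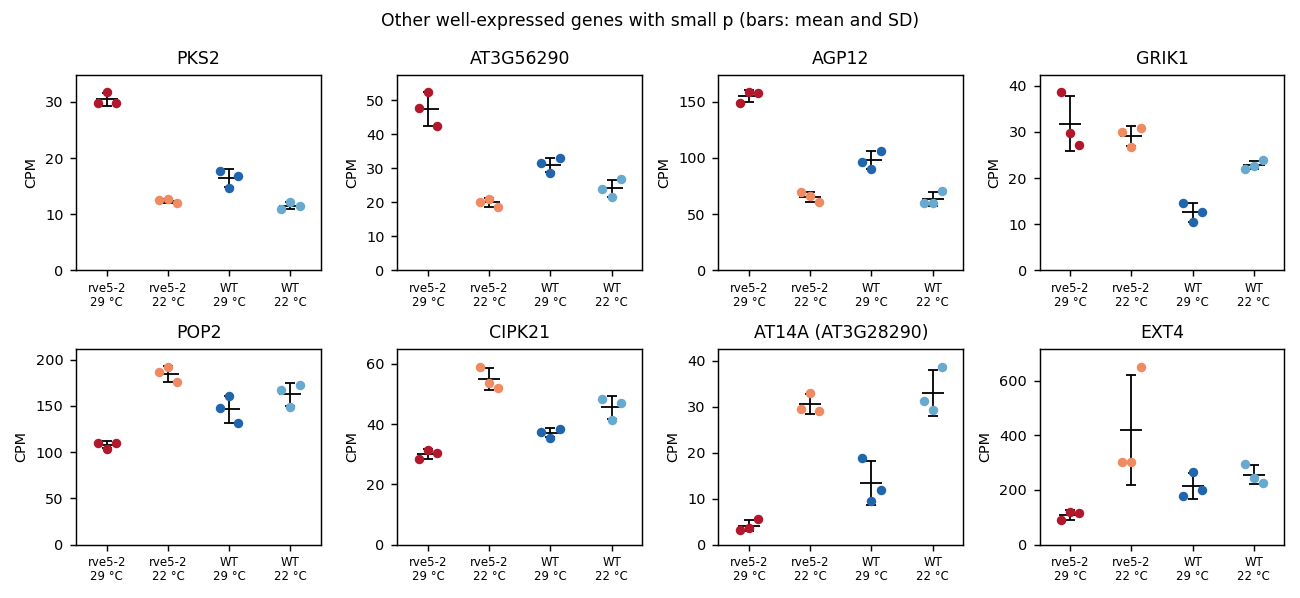
CPM of 8 other well-expressed genes in each library, in the order warm rve5-2, cool rve5-2, warm WT and cool WT, with the mean and SD of each group as bars. PKS2 stands at 29.8 to 31.7 CPM in warm rve5-2, and replicate 3 of cool rve5-2 stands alone in EXT4 at 652 CPM.

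AT4G01290 lies next to RVE5, 667 bases beyond its end on the opposite strand. AT4G01290 (chromosome 4, 537990 to 543869, minus strand) had 49.7, 49.8 and 50.6 CPM in the warm rve5-2 libraries and 60.3, 61.5 and 65.4 CPM in the cool rve5-2 libraries, against 119, 111 and 111 CPM in warm WT and 101, 109 and 104 CPM in cool WT. The rve5-2 libraries were below all WT libraries at both temperatures. The locus was lower in rve5-2 by 0.75 log2 at 22 °C (adjusted p = 0.000128) and by 1.18 log2 at 29 °C (adjusted p = 9.89e-07), and its interaction was -0.44 ± 0.09 (SE; 95% interval -0.62 to -0.25), with edgeR adjusted p = 0.398, unadjusted p = 0.000237 and DESeq2 adjusted p = 0.00214. The sequencing kit does not mark strand, and whether reads of the RVE5 region bear on this value was not tested.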

How the data were processed

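RNA of whole seedlings was sequenced with the TruSeq RNA v2 kit, which does not mark strand, per the labels' protocols. Per the submitters' processing notes, cutadapt 1.9, HISAT2 2.0.4, StringTie 1.3.4d and edgeR were used with the genome TAIR10. The deposited table gives a count and an FPKM value per gene and library, both made by the authors, for 32399 genes on 5 chromosomes. The counts were used as deposited, although low counts pile up at multiples of 3.73.

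Genes that passed filterByExpr (minimum count 10) were fitted with edgeR 4.0.16 (TMM, 1 mean per group, quasi-likelihood F test, R 4.3.3), and p-values were adjusted by Benjamini-Hochberg over all 21870 genes. Calls were made below an adjusted p of 0.05. Standard errors were derived from the same fit, as the size of the estimate divided by the square root of its F statistic. The 95% intervals take that error times the t quantile at the degrees of freedom of the test. DESeq2 1.42.0 and limma 3.58.1 on log2(FPKM + 1) served as alternatives, and the code was tested on simulated data. The named genes were to be RVE5, CCA1, PIF4 and genes called in the interaction. As edgeR called no gene (DESeq2 called 43), 3 rules were added after the values were seen: the 20 well-expressed genes of smallest p, up to 3 members of each list at an unadjusted p under 0.05, and all evening clock genes, plus further genes picked by hand (among them LHY, PRR9, RVE8, YUC8, HSP90.1 and NRT2.1). The members and the 36 gene lists were chosen with earlier results of these data known.

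Positions are those of the deposited table. Its loci were found in the RefSeq annotation of TAIR10.1 for 31912 of 32399 genes, and all 31912 spans overlapped, with 9854 identical in start and end on all 5 chromosomes, so upstream windows of 300 bases were read from that genome. For named genes, the share of 50-base stretches found elsewhere in the genome was counted. Standard errors and intervals include the spread among libraries as the fit estimates it. The limit of 3 units behind a count of 0 covers counting error only.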

Additional observations from a re-analysis of the deposited data

How the results depend on the processing

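Another scaling (median of ratios), no filter, a filter at a mean of 5 CPM, counts divided by the spacing of low counts, limma on FPKM with either pseudocount and a fit that included the root score each gave 0 called genes in the interaction. DESeq2 called 15 higher and 28 lower, and DESeq2 on counts divided by the spacing, an alternative chosen after seeing the data, called 11 and 22. Leaving out each library in turn gave 0 to 1 higher (1 without replicate 2 of cool rve5-2, AT5G52552) and 0 to 1 lower (1 without replicate 3 of warm rve5-2, CRF10). Without replicate 1 of warm WT 2148 genes (9.68%) were at an unadjusted p under 0.05 and the smallest adjusted p was 0.0612. The genes called in the warm response numbered 3590 to 6958 in rve5-2 and 1747 to 3621 in WT as libraries were left out. They numbered 84 and 36 when the root score entered the fit. As the score was lower in all warm libraries, that fit cannot tell it apart from temperature. Estimates near 0 or at low levels turned their sign. CCA1 ranged from -0.13 to 1.02 as libraries were left out, ZTL from -0.05 to 0.07 and was -0.03 in both limma fits, and LKP2 from -0.05 to 0.08, with -0.04 in both limma fits and -0.00 at a filter of 5 CPM. LHY ranged from -0.62 to 0.56, with -0.02 and -0.17 in the limma fits (pseudocounts 1 and 0.1) and -0.04 with the root score, and the cause was not tested for any of these.

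Deviations of libraries with the same replicate number correlated with r between -0.13 and 0.37 (median 0.07, over 0.1 in 6 of 18 pairs). For libraries with different numbers r ran from -0.35 to 0.28 (median -0.03, over 0.1 in 8 of 36 pairs). Between warm WT and warm rve5-2, same-numbered pairs gave 0.37, 0.07 and 0.34 for replicates 1, 2 and 3. Differently numbered pairs of these 2 groups ran from -0.35 to 0.13. Whether the numbers mark libraries handled together was not tested. With the number as a replicate block, the interaction again had 0 called higher and 0 lower, with 1149 genes at an unadjusted p under 0.05 and a smallest adjusted p of 0.0977 (ELF4).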

Other observations

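Genes annotated to translation and to ribosome biogenesis leaned above 0. Of 309 tested genes that the deposited table annotates to translation, 24 were higher and 1 lower in the interaction at an unadjusted p under 0.05 (8.09% in all, against 4.89% of all genes), with a median of 0.14 log2. Of 103 genes annotated to ribosome biogenesis 9 were higher and 0 lower, with a median of 0.15 log2. Of 210 genes annotated to rRNA processing only 2 were higher and 0 lower (0.952%), with a median of 0.09 log2. The terms were not refitted with libraries left out. Among the 36 terms with at least 20 genes tested, circadian rhythm held the highest share, 27 of 127 genes (21.3%), of which 6 were higher and 21 lower, and response to gibberellin followed with 6 higher and 4 lower of 92 (10.9%). None of these genes passed the adjusted threshold of edgeR.

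Some genes with small p-values were at or near 0 in part of the libraries, and those named here were chosen after their values were seen. AT3G55310 had the smallest p of all genes (edgeR adjusted p = 0.228, DESeq2 adjusted p = 8.82e-05). It was at 0 in all 3 warm rve5-2 libraries, which allows up to 0.145 to 0.179 CPM there, and at 0.69 to 0.84 CPM in cool rve5-2, against 0.45 to 0.73 CPM in warm WT and 0.67 to 0.84 CPM in cool WT. With the limits over the warm libraries averaged, it was at least 4.68-fold lower in warm than in cool rve5-2, and 30.7% of its 50-base stretches occur elsewhere in the genome. AT5G64341 and SAC51 share the same span of chromosome 5. AT5G64341 stood at 0.14 to 0.66 CPM in warm rve5-2 and at 19.3, 0.89 and 1.87 CPM in cool rve5-2, against 1.62 to 6.08 CPM in warm WT and 0.36 to 0.50 CPM in cool WT. SAC51 stood at 0.0136 to 0.0646 CPM in warm rve5-2 and at 17.5, 0.11 and 0.31 CPM in cool rve5-2, against 0.26 to 4.59 CPM in warm WT and 0.0355 to 0.0528 CPM in cool WT. Their interactions were -7.25 and -12.61 log2, and -4.84 and -7.82 without replicate 1 of cool rve5-2. MAPR2 reached 23.49 and 6.72 CPM in replicates 2 and 3 of warm rve5-2 and 30.4 CPM in replicate 1 of cool WT, and was under 1 CPM in the other 9 libraries. Another locus, AT2G24945, covers 2820 of the 2839 bases of MAPR2 on the same strand. Of the 50-base stretches of MAPR2, 12.1% occur elsewhere in the genome. How reads were divided between the overlapping loci was not tested. bZIP2, called by DESeq2 with a mean of 24.4 CPM, was at 0 in 6 of the 12 libraries.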
